A study of Rattus norvegicus with 6 samples.

Results

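Probes that mark 124I-HIB-labelled stem cells from fat tissue (adipose-derived stem cells, ADSCs) in culture were followed into infarcted rat myocardium that had been injected with such cells. A probe was taken as ADSC-enriched where it was well above background on the array of labelled ADSCs and its signal there was at least 16-fold that on each of the 2 arrays of transplanted myocardium. The rule was met by 335 of 30367 probes, or 1.62% of the 20733 probes well above background in the labelled cells. Of these, 273 carried a gene symbol, for 247 genes, and 62 had none. Of the 51 member genes with more than 1 probe on the array, 26 also had a probe that did not meet the rule. Levels are log2 signals relative to the 75th percentile of each array, so a level of 0 equals that percentile and a step of 1 is 2-fold.

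All tissue and cells came from Sprague Dawley rats labelled as 13 weeks old. The 4 myocardial arrays held sham-operated myocardium (1 array), infarcted myocardium with an intramyocardial injection of PBS, a saline buffer (1 array), and infarcted myocardium injected with ADSCs carrying 124I-HIB (2 arrays, numbered replicates 1 and 3 in the labels and called treated 1 and treated 3 here). 124I-HIB is a fat-soluble ester with radioactive iodine that lodges in cell membranes. The labels give 21 days for all 4 myocardial arrays and count them from a sham operation, infarcted tissue included, which does not settle how long after the injection tissue was taken. Labelled and unlabelled ADSCs, cultured for 14 days, took up 1 array each. The labels state neither the part of the heart sampled, nor whether the treated pair came from separate animals, nor whether the cultured cells were the batch injected, and no array used here held tissue injected with unlabelled cells. The labelled ADSC array thus stands for cells before transplantation at best, and its expression may not be that of the same cells in tissue.

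ADSCs are isolated by their adherence to plastic and belong to the mesenchymal stromal cells. In culture such cells lay down collagen and fibronectin, secrete chemokines and growth factors, and keep the Hox code of the body region they came from. In the infarcted heart the resident fibroblasts and epicardial cells make much of the same matrix, so few genes of an ADSC are foreign to the heart. A transplanted cell's RNA reaches a tissue array in proportion to its share of all RNA in the sample, and in such bulk samples fewer cells of a type and less RNA per cell cannot be told apart.

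The arrays were alike in coverage, with 64.4% to 69.4% of probes well above background and no saturated spot. The 75th percentile signal lay between 772 and 1276 on the myocardial arrays, and was 2360 and 2615 on the cell arrays. Ventricular cardiomyocyte markers had median levels of 7.66 to 8.17 on the 4 myocardial arrays and about -4.3 in the cells, which carried Thy1, a surface glycoprotein of mesenchymal stromal cells, at 0.92 unlabelled and 0.82 labelled. The PBS array stood apart from the other myocardial arrays in markers of other tissues. Of the 6 atrial markers on the array, 6 were above background in PBS and 3 or 4 in the other hearts. Their median level was 5.59 in PBS against -2.93 in sham, -2.07 in treated 1 and -1.43 in treated 3, and Myl7, the atrial myosin light chain, was at 7.60, -0.47, 2.02 and 0.83. Of the 4 mesothelial markers, 4 were above background in PBS, 1 or 2 in the other hearts and 3 in the cells. Msln and Upk1b, 2 of them, are ADSC-enriched probes. Only 1 of the 4 was measured on PBS and both treated arrays, and it did not stand apart, with a treated minus PBS difference of 0.08. Adipoq, made by fat cells, was at -2.66 in PBS and not above background on the other arrays, where it lay between -8.99 and -7.78. Every difference between treated and PBS below rests on that single PBS array, and the part that atrial, mesothelial or fat tissue had in it was not tested.

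Of the genes with the largest excess in labelled ADSCs, most were at background in the sham and treated hearts. By the smaller of its differences from the treated arrays, the median ADSC-enriched probe was 32.8-fold above them (5.04 on the log2 scale). An excess of 6 or more was seen for 92 probes and of 8 or more for 21, up to 12.50. These values chose the members and are a description. Il1rl1, the receptor for interleukin 33, was at 4.83 in labelled and 4.45 in unlabelled ADSCs. The same probe was not well above background on any myocardial array, at -7.52 in sham, -7.26 in PBS, -7.93 in treated 1 and -7.67 in treated 3. The labelled cells were at least 3493-fold above the treated pair on it. Such a bound sets the bright level against the mean over the treated pair of, on each array, the higher of the dim probe's own level and the lowest level well above background (all on the log2 scale).

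Grem1, a secreted antagonist of bone morphogenetic proteins, was at 5.77 in labelled and 5.21 in unlabelled ADSCs. In the hearts it was at -7.72 in sham, -6.33 in PBS, -6.66 in treated 1 and -5.65 in treated 3, and only treated 3 was well above background. A further Grem1 probe was instead above background only on PBS among the hearts, at -5.83 against -6.76 and -6.32 in the treated pair. The 2 probes of the gene thus pointed opposite ways between PBS and treated 3. Steap1, a membrane protein of the cell surface, was at 3.77 in labelled ADSCs and between -7.76 and -7.41 in the hearts. Tnc, the matrix glycoprotein tenascin C, was at 2.17 in labelled ADSCs and between -8.31 and -7.91 in the hearts. The labelled cells were at least 1667-fold above the mean of the treated pair for Steap1 and at least 550-fold for Tnc. None of the hearts, treated or not, had either gene above background.

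**Figure D1:**
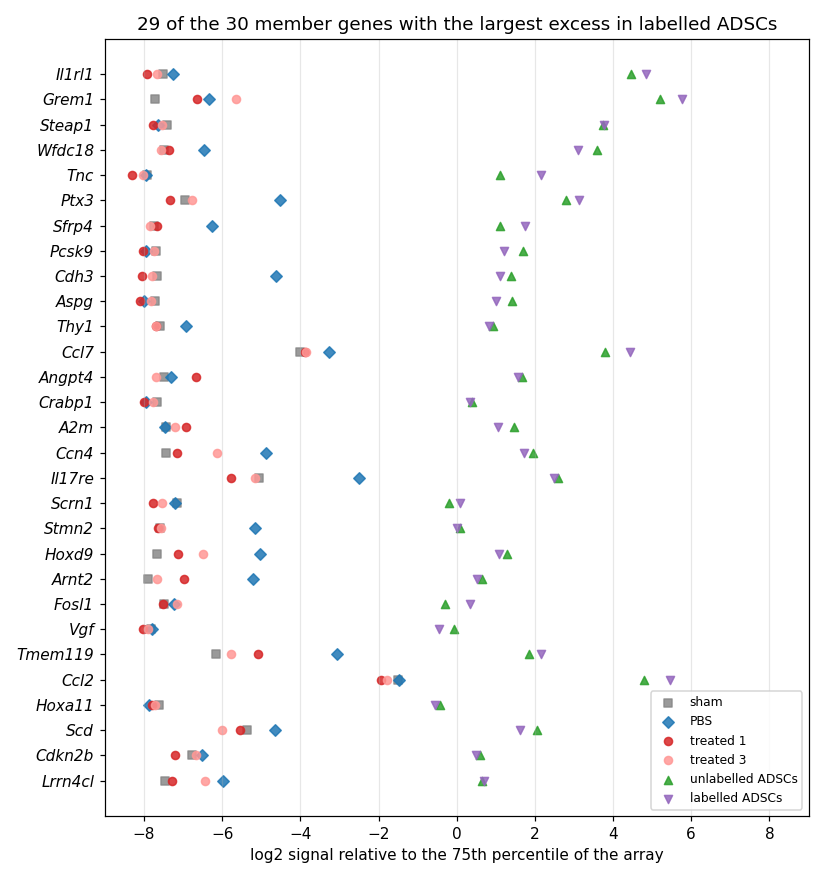
Level of 29 of the 30 member genes with the largest excess in labelled ADSCs, as log2 signal relative to the 75th percentile of the array (horizontal axis), with 1 symbol per array and each gene shown by its brightest member probe. Both cell arrays lie far to the right of the 4 hearts. For Ptx3, Cdh3 and Il17re the PBS heart stands to the right of the sham and treated hearts. Levels below about -6.7 are mostly not well above background, and neither are some higher ones, such as Sfrp4 in PBS at -6.25.

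The 3 members nearest inside the threshold were Hoxa6 (4.004 on the log2 scale), Dhcr7 (4.004) and Ereg (4.001), and just outside it lay the non-members Duox2 (3.998) and Rrm2 (3.988). No gap in these differences marks the edge of the set. Rrm2, the small subunit of ribonucleotide reductase, was at -1.80 in PBS and at -0.83 and -0.57 in the treated arrays, and its higher treated signal is what the rule caps.

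The members' levels in the hearts were low, and treated hearts sat with sham rather than with PBS. The median level of the 335 probes was 0.35 in labelled ADSCs and 0.28 in unlabelled ones. It was -6.03 in sham, -5.15 in PBS, -6.00 in treated 1 and -5.94 in treated 3. As a percent of the labelled ADSC signal of the same probe, the median was 2.46% in sham, 3.67% in PBS, 2.58% in treated 1 and 2.70% in treated 3. Of the 335 probes, 121 were not well above background on any heart. PBS had 205 above background, treated 1 had 167, treated 3 had 164 and sham had 152. The rule holds the treated arrays to a sixteenth of the cell signal at most, and it holds neither PBS nor sham to anything, so the order of treated and PBS over these probes is partly set by the rule.

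**Figure D2:**
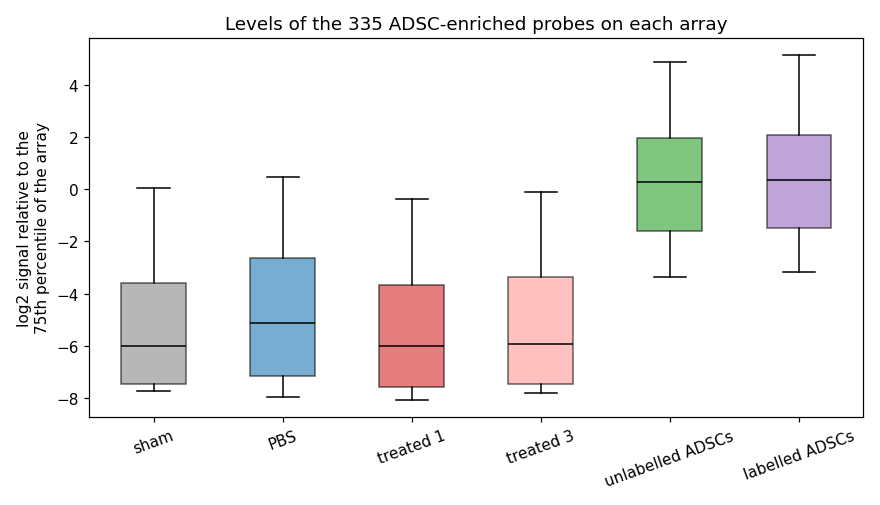
Levels of the 335 ADSC-enriched probes on each of the 6 arrays, as log2 signal relative to the 75th percentile of the array (vertical axis). Boxes span the quartiles with the median as a line, and whiskers reach the 5th and 95th percentiles over probes. The medians of sham and both treated hearts lie within 0.1 of -6, PBS lies at -5.15, and the cell arrays lie at 0.28 and 0.35.

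No ADSC-enriched probe was 2-fold higher in both treated hearts than in the PBS heart, among the 154 that were well above background on all 3 arrays. Over all probes measured there, 0.432% were 2-fold higher (83 of 19212). In the other direction 25 of the 154 (16.2%) were 2-fold lower in both treated hearts, against 0.781% of all probes. At any size, 122 of the 154 were lower in both treated hearts, 17 were higher in both and 15 differed in sign, where 34.3% of all probes were lower in both and 38.3% higher. The median difference over the 154 was -0.52 (quartiles -0.87 and -0.17), -0.58 in treated 1 and -0.41 in treated 3, and over all probes measured it was 0.01. Over all 335 members, dim ones included, it was -0.39. Since the rule used the treated signals, these counts describe the set and are not a test of it.

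**Figure D3:**
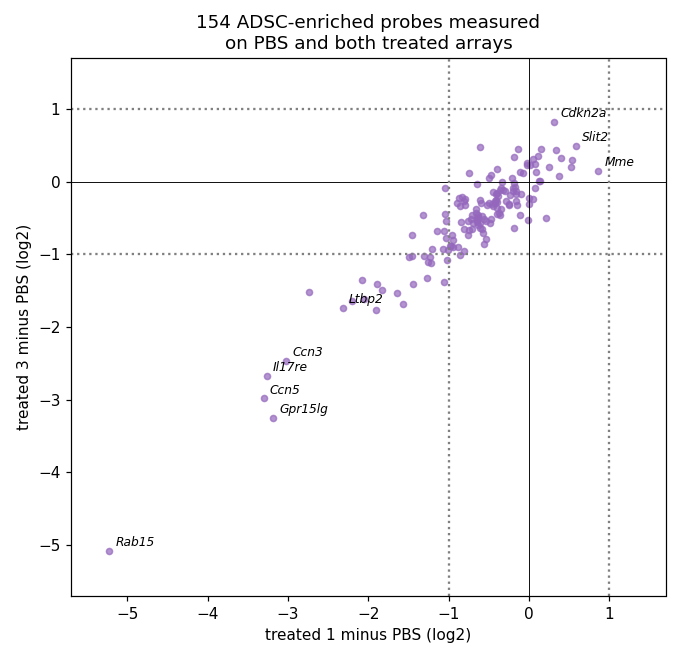
Difference of treated 1 from PBS (horizontal axis) and of treated 3 from PBS (vertical axis), both log2, for the 154 ADSC-enriched probes well above background on all 3 arrays. Dotted lines mark 2-fold. No point lies beyond 2-fold in the upper right, 25 lie beyond it in the lower left, and Rab15 is the farthest at -5.15 on average.

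With limma, fitted over the 21723 probes well above background on at least 1 heart, no member passed an adjusted p under 0.05 in either direction, and neither did any other probe (0% of all). Of the 214 members in that fit, 1 was higher and 96 were lower at an unadjusted p under 0.05, where 4.55% and 4.99% of all probes were higher and lower. The rule used the treated values, and a probe above background on PBS alone among the hearts entered the fit through that array. These counts thus describe the set and support nothing. The fit has 1 residual degree of freedom, from the treated pair, and PBS and sham are assumed to vary as that pair does. The smallest adjusted p was 0.0952, for Msln, Rab15 and Upk1b. A limma fit with a trended, robust variance called 6 members lower (Msln, Rab15, Upk1b, Gpr15lg, Ccn5 and Ccn3) and none higher. Upk1b entered these fits only because PBS was above background, and Msln only through PBS and treated 3, so their values follow in part from the filter. With normexp background correction only 146 probes met the rule, 9 of the 103 measured were 2-fold lower and 8 were called lower by limma.

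A set chosen without the PBS and treated arrays gave the same picture with a few exceptions. Taking labelled ADSCs at least 16-fold above sham gave 403 probes, of which 309 are ADSC-enriched by the first rule. Of the 198 measured on PBS and both treated arrays, 34 (17.2%) were 2-fold lower in both treated hearts and 3 (1.52%) were 2-fold higher. At any size 148 were lower in both and 25 higher in both, and the median difference was -0.42. With limma none of these probes passed an adjusted p under 0.05. At an unadjusted p under 0.05 from limma, 10 of the 274 tested were higher and 111 were lower. Over all probes 4.55% were higher and 4.99% lower. The 274 include probes above background on PBS alone among the hearts. Those entered the fit through the array where they were high, so these limma counts are not a test of the set. Of the 3 higher probes 1 has a name and is given here because its value was seen. It is Dio3, the deiodinase that inactivates thyroid hormone. Dio3 was at -1.42 in labelled and -1.68 in unlabelled ADSCs, at -4.90 in treated 1 and -5.35 in treated 3, and at -6.75 in PBS. That PBS level was near the floor, as the lowest level well above background on the PBS array was -6.99. In sham Dio3 was not well above background, at -6.98. Both treated hearts lay above both other hearts, by 1.63 ± 0.32 (SD, n = 2) over PBS, with an adjusted p from limma of 0.336. The treated signal was 8.99% and 6.57% of that in labelled ADSCs, 13.0-fold below it, so Dio3 missed the 16-fold rule.

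The size of the difference depended on which heart the rule used. When labelled ADSCs were instead set 16-fold above PBS, which caps the PBS signal, 336 probes met the rule and the median treated minus PBS difference over them was -0.022. Of the 144 measured, 13 (9.03%) were 2-fold higher and 8 (5.56%) were 2-fold lower in both treated hearts, against 0.432% and 0.781% of all probes. At any size 44 were higher in both and 80 lower in both, with a median of -0.20. Compared with sham, the treated hearts held 2 members that were 2-fold higher (0.529% of all probes were) and 2 that were 2-fold lower (0.386%), among 145 measured, and the median difference was -0.03. PBS compared with sham had 30 of 149 measured members 2-fold higher (20.1%, against 2.14% of all probes) and 3 lower (1.43% of all probes), with a median of 0.39 against -0.05 over all probes. These comparisons share arrays and are not independent of each other.

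The difference between treated hearts and PBS was larger on probes with a larger excess of the cells over sham. Probes above background in labelled ADSCs were binned by their difference from sham. The median treated minus PBS difference of the measured probes was 0.03 where that excess was under 1, -0.06 from 1 to 2, -0.12 from 2 to 3, -0.22 from 3 to 4, -0.38 from 4 to 6 and -0.56 at 6 and over, the last over 36 probes. In the top bin 9 of 36 probes were 2-fold lower and 0 were 2-fold higher. Over all probes of the same bins, dim ones included, the median PBS minus sham difference went from -0.10 to 0.63. On those probes the median treated minus PBS difference went from 0.03 to -0.40. The bins in which treated was lowest against PBS were thus those in which PBS was highest over sham, the array that also sets the bins. Probes with the opposite pattern, at least 16-fold higher in both treated hearts than in labelled ADSCs, numbered 1063. They were chosen for a high signal on both treated arrays with no condition on PBS, which favours treated over PBS. Their median treated minus PBS difference was 0.09. Of the 1059 measured, 13 (1.23%) were 2-fold higher and 21 (1.98%) were 2-fold lower, against 0.432% and 0.781% of all probes.

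**Figure D4:**
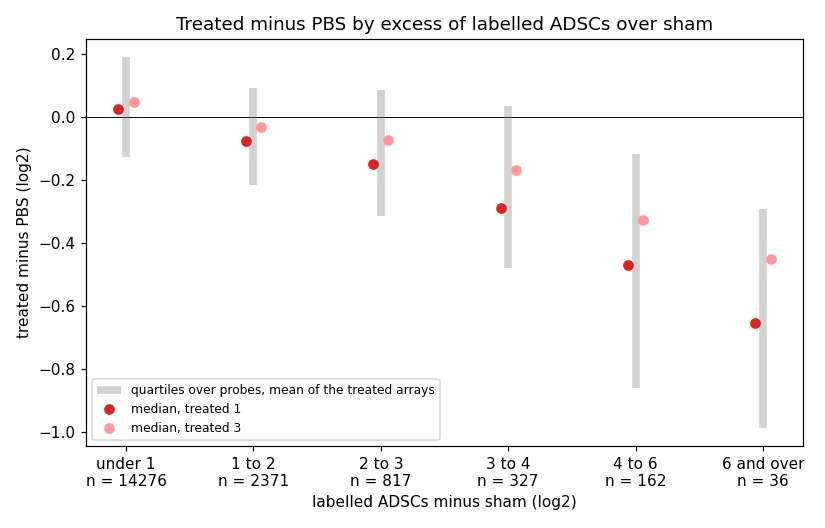
Median treated minus PBS difference (vertical axis, log2) of probes well above background in labelled ADSCs and on all 3 infarct arrays, in bins of the excess of labelled ADSCs over sham (horizontal axis, log2). Points are medians over probes for each treated array and bars span the quartiles of the mean of both. Both arrays step down from near 0 in the first bin to -0.65 and -0.45 in the last.

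In terms of the signal that transplanted cells could add, the treated minus PBS difference was set against the labelled ADSC signal of the same probe. Its median over members was -0.604% of the labelled ADSC signal. It was above 1% for 7 members and below -1% for 132, and the highest was 3.43%, for Ccl20. The rule caps the treated signal at a sixteenth of the cell signal and leaves PBS uncapped, so these counts are partly set by it. Among the 403 probes chosen against sham, 29 were above 1% and 168 below -1%, and the highest was 11.3%. Among the 336 chosen against PBS, which caps PBS instead, 70 were above 1% and 63 below -1%, and the highest was 34.2%. Probes with little or no signal in the PBS infarct were also taken alone. On 57 probes the labelled ADSCs were at least 100-fold above PBS. Of these 14 were above background on PBS, 1 (a probe for Akr1c3) was 2-fold higher in both treated hearts and 3 (for Ptx3, Sfrp4 and an unnamed transcript) were lower when dim probes are counted, and their median difference was 0.02. Choosing them by a low PBS signal favours treated over PBS. Most were dim on PBS, so that median is largely not one between measured levels. Over all members 1 probe without a name was above background on both treated arrays and not on PBS (0.985% of all probes were), and 37 were above background on PBS and on neither treated array (1.68% of all probes). With dim probes counted, 2 members were 2-fold higher in both treated hearts, a Ccl20 probe and an Akr1c3 probe, and 57 were 2-fold lower, where 1.23% and 1.75% of all 30367 probes were higher and lower when counted so. Ccl20, a chemokine for lymphocytes and dendritic cells, was at -7.91 in PBS, -6.47 in treated 1 and -6.09 in treated 3 on that probe. None of the 3 was well above background, sham was at -6.38, and a further Ccl20 probe was at -7.73, -7.58 and -7.32, so the difference is not one between measured levels. Akr1c3, an aldo-keto reductase, was at -7.25 in PBS, -6.24 in treated 1, -5.82 in treated 3 and -6.05 in sham on that probe, likewise with no heart well above background, and a further member probe was 0.30 ± 0.12 (SD, n = 2) below PBS.

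Ccn5 and Ccn3, 2 genes of the CCN family, were among the measured members farthest below PBS. CCN proteins are secreted, cysteine-rich regulators of matrix and growth factor signals, and several are Wnt targets or modulators. Of the 21 Wnt and CCN genes on the array 6 were ADSC-enriched (Ccn5, Ccn3, Sfrp4, Ccn4, Wnt4 and Rspo3), 3 of them were measured on all 3 infarct arrays, and 2 of those were 2-fold lower in both treated hearts. Ccn5 was at 2.68 in labelled and 3.07 in unlabelled ADSCs, at -0.63 in PBS, -3.94 in treated 1, -3.61 in treated 3 and -4.22 in sham. PBS was the highest of the hearts, and treated and sham lay within 1 of each other. The treated hearts were 3.14 ± 0.23 (SD, n = 2) below PBS, with an adjusted p from limma of 0.174. Ccn3 was at 1.82 in labelled ADSCs, -0.85 in PBS, -3.88 in treated 1, -3.32 in treated 3 and -3.10 in sham. Its treated mean was 6.70-fold below PBS, with an adjusted p from limma of 0.240. Sfrp4, a secreted Wnt antagonist, was at 1.76 in labelled ADSCs and not above background on any heart, where PBS was highest at -6.25. Rspo3, an amplifier of Wnt signals, and Ccn4 were above background on PBS alone among the hearts, at -4.89 and -4.87. PBS exceeded the mean of the treated pair at least 4.14-fold for Rspo3 and at least 3.34-fold for Ccn4.

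Among cytokines, growth factors and their antagonists, the largest difference described here was in an activin antagonist. Fst, follistatin, which binds activin, was at 2.14 in labelled ADSCs, -1.76 in PBS, -3.83 in treated 1, -3.11 in treated 3 and -3.10 in sham. Of the 51 cytokines, growth factors and their antagonists on the array 7 were members, 3 were measured, and Fst was the 1 that was 2-fold lower. Il33, an alarmin stored in the nuclei of stromal cells and the ligand of Il1rl1, was at 3.80 in labelled ADSCs and -0.95 in PBS, -1.35 in treated 1, -1.22 in treated 3 and -1.28 in sham, a spread of less than 0.5 over the hearts. Il1rn, the interleukin 1 receptor antagonist, was at 2.19 in labelled ADSCs and -4.34, -4.51, -4.42 and -3.72 in PBS, treated 1, treated 3 and sham. Neither cytokine gene thus separated the treated hearts from PBS by more than 0.5.

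Of 17 chemokines on the array 4 were members, all of them attractants for monocytes, neutrophils or lymphocytes. Ccl7 was at 4.44 in labelled and 3.79 in unlabelled ADSCs. It was at -3.28 in PBS, -3.89 in treated 1, -3.85 in treated 3 and -4.02 in sham, all above background, a difference of -0.59 ± 0.03 (SD, n = 2) from PBS. Ccl2, the main monocyte chemokine, was at 5.47 in labelled ADSCs and between -1.93 and -1.47 in the hearts, with both treated arrays the lowest. Cxcl1, a neutrophil chemokine, was at 1.01 in labelled ADSCs, -3.06 in PBS, -4.30 in treated 1, -4.10 in treated 3 and -3.54 in sham. It was 2.19-fold below PBS in the treated hearts, with an adjusted p from limma of 0.336, and was the 1 of 3 measured chemokine members that was 2-fold lower.

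The 250 bases before the RefSeq start (GRCr8) of 3 member genes are shown because these genes stand for the main patterns: Il1rl1 for the largest excess, Ccl7 for a chemokine measured on every array, and Postn, a matrix gene, for members 2-fold below PBS. They are Il1rl1 at chr9:50203388-50203637 on the plus strand, Ccl7 at chr10:67513845-67514094 on the plus strand and Postn at chr2:140677811-140678060 on the plus strand. Capitals mark matches on either strand to TATAAA (the core of a TATA box) or TGANTCA (the AP-1 motif, with N for any base); the motifs do not overlap.
Il1rl1: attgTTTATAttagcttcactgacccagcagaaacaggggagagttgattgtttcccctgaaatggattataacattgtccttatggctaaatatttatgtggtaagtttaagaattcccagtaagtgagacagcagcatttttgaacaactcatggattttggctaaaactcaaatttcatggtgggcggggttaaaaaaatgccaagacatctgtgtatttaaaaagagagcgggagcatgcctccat
Ccl7: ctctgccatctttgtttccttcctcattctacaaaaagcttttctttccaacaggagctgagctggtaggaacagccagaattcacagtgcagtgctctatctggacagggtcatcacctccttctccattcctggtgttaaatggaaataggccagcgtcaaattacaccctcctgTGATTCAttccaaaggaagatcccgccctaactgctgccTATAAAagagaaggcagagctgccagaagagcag
Postn: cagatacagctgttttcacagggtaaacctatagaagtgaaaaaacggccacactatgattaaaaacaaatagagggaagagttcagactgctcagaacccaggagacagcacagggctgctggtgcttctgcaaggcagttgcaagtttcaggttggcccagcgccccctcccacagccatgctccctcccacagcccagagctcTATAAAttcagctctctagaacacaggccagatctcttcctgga
Of the 247 member genes 172 had a promoter entry. In windows of 300 bases, from 250 before to 50 after the start, AP-1 letters were found in 18 of the 172 (10.5%) and in 7.33% of 27457 promoters. TATA box letters were in 13.4% of member promoters and in 14.3% of all. A match is a description of these letters and not of binding.

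Matrix genes formed the largest group among the listed members, and most of those measured were less than 2-fold from PBS. Of the 24 fibrillar matrix genes and partners on the array 11 were ADSC-enriched, 8 were measured on all 3 infarct arrays, and 2 of those, Postn and Vcan, were 2-fold lower in both treated hearts. Postn, periostin, a matrix protein of activated fibroblasts, was at 0.75 in labelled and 1.14 in unlabelled ADSCs. It was at -2.58 in PBS, -4.41 in treated 1, -4.07 in treated 3 and -4.13 in sham, so both treated hearts lay with sham. The treated hearts were 1.66 ± 0.24 (SD, n = 2) below PBS, with an adjusted p from limma of 0.305. Vcan, the proteoglycan versican, was at 3.66 in labelled ADSCs, -0.27 in PBS, -1.30 in treated 1, -1.35 in treated 3 and -1.06 in sham. Col1a1, the main fibrillar collagen of scar, had 2 member probes, at 1.66 in PBS against 1.68 and 1.89 in the treated hearts and at 2.70 against 2.34 and 2.58, so their means differed in sign. Fn1, fibronectin, was at 5.92 in labelled ADSCs, 0.95 in PBS, 0.15 in treated 1, 0.30 in treated 3 and 0.40 in sham on its brighter probe. Bgn, the proteoglycan biglycan, was 0.54 ± 0.01 (SD, n = 2) below PBS in the treated hearts on its member probe. A brighter Bgn probe that is not a member was at 4.91 in PBS, 4.52 in treated 1, 4.68 in treated 3 and 7.08 in labelled ADSCs, a difference of -0.31. Ltbp2, a microfibril protein of the latent TGF-beta binding family and a member outside that list, was at 2.80 in labelled ADSCs, -1.32 in PBS, -3.64 in treated 1 and -3.06 in treated 3.

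No measured member among the listed proteases, their inhibitors and crosslinking enzymes was 2-fold from PBS in both treated hearts. Of 25 proteases and inhibitors 7 were members and 4 were measured, none of them 2-fold apart. Timp1, a metalloproteinase inhibitor, was at 5.87 in labelled ADSCs, 0.81 in PBS, 0.17 in treated 1, 0.35 in treated 3 and 0.40 in sham. Mmp14, a membrane-bound collagenase, was at 4.97 in labelled ADSCs, 0.50 in PBS, -0.15 in treated 1, -0.03 in treated 3 and 0.11 in sham. Both were highest in PBS among the hearts, by less than 1. Of 17 crosslinking and folding genes 3 were members, and Loxl1, which crosslinks elastin, was 0.93 ± 0.06 (SD, n = 2) below PBS in the treated hearts.

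Of the 10 positional and mesenchymal transcription factors among the members, 6 were at background in every heart. Of 22 Hox genes on the array 6 were members (Hoxd9, Hoxb7, Hoxa7, Hoxa11, Hoxc4 and Hoxa6) and only Hoxb7 was measured on all 3 infarct arrays. Hoxa11 was at -0.55 in labelled ADSCs and not above background on any heart, at -7.88 in PBS, -7.79 in treated 1, -7.73 in treated 3 and -7.62 in sham. Hoxd9 was at 1.07 in labelled ADSCs and above background on PBS alone among the hearts, at -5.03 against -7.13 in treated 1, -6.50 in treated 3 and -7.66 in sham. Hoxb7 was at 1.05 in labelled ADSCs, -3.44 in PBS, -4.10 in treated 1, -3.82 in treated 3 and -3.70 in sham. Prrx1, a homeobox factor of limb and stromal mesenchyme, was at 3.28 in labelled ADSCs, 0.20 in PBS, -1.06 in treated 1, -1.12 in treated 3 and -1.44 in sham, and was the 1 of 2 measured members among mesenchymal factors that was 2-fold lower. Emx2, a further homeobox factor, was 0.91 ± 0.18 (SD, n = 2) below PBS. Of the 17 mesenchymal surface markers 2 were members. Thy1 was not above background on any heart, and Anpep, the aminopeptidase CD13, was at -2.57 in PBS and -2.89 and -2.69 in the treated hearts.

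The measured member farthest below PBS was Rab15, a small GTPase of endosome recycling. It was at -0.12 in labelled and -0.31 in unlabelled ADSCs and at 0.92 in PBS, so the PBS heart held more of it than the cells. Treated 1 was at -4.31, treated 3 at -4.16 and sham at -5.72, the last not above background. Gpr15lg, a secreted ligand of the receptor Gpr15, was at 0.64 in labelled ADSCs, -1.08 in PBS, -4.26 in treated 1, -4.33 in treated 3 and -3.92 in sham (adjusted p from limma 0.155). Il17re, an interleukin 17 receptor chain, was at 2.50 in labelled ADSCs, -2.50 in PBS, -5.76 in treated 1, -5.17 in treated 3 and -5.06 in sham (adjusted p from limma 0.233). Gpc3, a cell surface proteoglycan, was at 2.98 in labelled ADSCs, -2.16 in PBS, -4.21 in treated 1, -3.77 in treated 3 and -4.71 in sham. For Gpr15lg, Il17re and Gpc3 the treated hearts lay within 1 of sham and PBS stood above both. Msln and Upk1b, both made by mesothelium, were at 0.94 and -0.10 in PBS, above the labelled ADSCs at -0.55 and -0.998. Upk1b was at background in the other hearts (-7.14 to -6.33), and Msln was above background in treated 3 alone of them, at -6.03 against -6.17 in treated 1 and -6.85 in sham. PBS was at least 78.0-fold above the mean of the treated pair for Upk1b. A further Upk1b probe that is not a member went another way, at -2.96 in PBS, -3.64 and -2.97 in the treated hearts, -2.57 in sham and -4.80 in labelled ADSCs. Krt19, a mesothelial keratin that is no member, was at -2.80 in PBS and at background on all other arrays, the cells included.

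Of the 25 members 2-fold below PBS in both treated hearts, 20 have names and 5 do not. In 22 of them both treated arrays lay nearer to sham than to PBS, as in 137 of all 150 probes that were 2-fold lower (91.3%). In 21 of them PBS was at least 2-fold above sham, as in 118 of the 150 (78.7%). Their adjusted p-values from limma ran from 0.0952 to 0.483. S100a4, a calcium-binding protein of fibroblasts, was at 7.07 in labelled ADSCs, 3.09 in PBS, 1.79 in treated 1, 2.07 in treated 3 and 2.29 in sham. Cyp1b1, a cytochrome P450 of stromal cells, was at 0.34 in labelled ADSCs, -3.19 in PBS, -4.83 in treated 1, -4.72 in treated 3 and -5.08 in sham. Uchl1, a deubiquitinase also known from neurons, was at 1.52 in labelled ADSCs, -2.02 in PBS, -3.51 in treated 1, -3.06 in treated 3 and -3.75 in sham. For Cyp1b1 and Uchl1 the treated hearts lay between sham and PBS, and for S100a4 below both. The others with names not yet given were Cst6, Nupr1, Cib2, Rell2 and Tnfrsf11b, at mean differences from -2.13 to -1.22.

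Among members measured on all 3 infarct arrays, those highest in treated hearts relative to PBS differed from it by less than 1 in each array. Slit2, a guidance ligand of Robo receptors, was at 3.36 in labelled and 3.75 in unlabelled ADSCs, at -2.68 in PBS, -2.10 in treated 1, -2.19 in treated 3 and -2.14 in sham. The difference was 0.54 ± 0.07 (SD, n = 2), with an adjusted p from limma of 0.501, and sham was as high as treated. Cdkn2a, an inhibitor of the cell cycle that accumulates in culture, was at 2.06 in labelled ADSCs, -4.84 in PBS, -4.53 in treated 1, -4.01 in treated 3 and -4.73 in sham, a difference of 0.57 ± 0.36 (SD, n = 2). Here both treated hearts exceeded both other hearts. Mme, the surface peptidase neprilysin, was at 1.40 in labelled ADSCs, -5.60 in PBS, -4.74 in treated 1, -5.45 in treated 3 and -4.33 in sham, so sham was above both treated arrays. Kcnk12, a potassium channel, was 0.42 ± 0.17 and Dsn1, a kinetochore protein, 0.38 ± 0.07 (SD, n = 2) above PBS. The other 5 of the highest 10 were Gpr176, Ntrk3, Olfml3, Cfi and Tm7sf2, with mean differences from 0.11 to 0.30, and a further member probe of Ntrk3 differed by -0.19. Adjusted p-values from limma for all 10 were 0.501 or more.

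None of the listed mitosis and DNA replication genes was a member, though the median of each list was higher in labelled ADSCs than in sham. Of 28 mitosis genes and 28 DNA replication genes on the array 0 met the 16-fold rule. The median excess of labelled ADSCs over sham was 2.81 for mitosis genes and 1.20 for replication genes. In treated minus PBS their medians were 0.91 and 0.23, and 7 of the 23 measured mitosis genes were 2-fold higher, against 0.432% of all measured probes. The mitosis list's median level was -3.09 in sham, -4.08 in PBS, -2.95 in treated 1 and -2.95 in treated 3, so sham stood with the treated hearts. Cardiac transcription factors held 0 members of 9, a list shorter still.

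The ADSC-enriched probes were about as high in unlabelled as in labelled cells. All 335 were above background in unlabelled ADSCs, with a median difference of -0.00020 between labelled and unlabelled. Unlabelled ADSCs, which the rule did not use, were at least 16-fold above sham on 291 of them (86.9%), against 1.28% of all probes. Of the 335, 12 were 2-fold higher in labelled cells and 0 were 2-fold lower, where 0.443% and 0.586% of all probes measured on both cell arrays were. The rule chose on the labelled array, which favours an excess there, and the 388 probes chosen from unlabelled ADSCs against sham instead held 6 that were higher and 2 that were lower in labelled cells. Each cell condition is a single array, so no test applies. Angptl4, an inhibitor of lipoprotein lipase induced by fatty acids and by low oxygen, was at 3.56 in labelled and -1.69 in unlabelled ADSCs. In the hearts it was at -0.86 in PBS, -1.40 in treated 1, -1.65 in treated 3 and -2.96 in sham. Its level in unlabelled cells was thus below PBS and treated 1 and about that of treated 3. An excess of Angptl4 over the infarcted hearts was seen on the labelled array alone. The other named genes of the 12 were Tnc, Il1rn, Spon2, Gna14, Krt7, Arg1, Slc38a4, Serpinb2 and Ppp1r14bl, with differences from 1.04 to 1.41.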

How the data were processed

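RNA from rat myocardium and cultured ADSCs was hybridised to 6 one-colour arrays, all on 1 slide. The authors deposited scanner intensity values, which the file headers and the submitters' processing notes credit to Agilent Feature Extraction 11.0.1.1; the processed signal is background-subtracted and detrended, so dim values lie close to noise. A further table of the authors' holds log2 values of the same arrays. No source used here states its steps; heart and cell columns have different medians in it, equal within each kind, so it was compared within hearts only.

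Processed signals were taken as log2, minus the 75th percentile of all non-control spots of the array, and averaged over the spots of a probe, leaving out outlier spots. A probe counted as well above background where at least 0.5 of its spots were. Names came from RefSeq (GRCr8) through the probe's accession, for 18355 probes. Differences of 2-fold had to hold in both treated arrays. limma 3.58.1 (R 4.3.3; lmFit, eBayes, Benjamini-Hochberg over all 21723 probes) was fitted to the 4 myocardial arrays, and checked on simulated data. Nothing says that the treated pair were separate animals: a p-value here reflects how far that pair differ, possibly for technical reasons. The number of arrays limits the precision.

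The members, gene lists and tests were chosen with earlier results of these data known. Named genes are the 30 with the largest excess, the 10 highest and 10 lowest in treated minus PBS among measured members, up to 6 members per gene list, and the 3 on each side of the threshold; a gene stands for its brightest member probe. Some genes that this rule names are not reported here. Dio3, Akr1c3, Il1rn, the genes 2-fold apart between the cell conditions and some that were 2-fold below PBS were named after their values were seen. Alternatives covered background correction, normalization, the fold, the heart used in the rule, the filter, the variance and single treated arrays. Figures were drawn with matplotlib 3.10.9.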

Additional observations from a re-analysis of the deposited data

How the results depend on the processing

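The absence of members 2-fold higher in treated hearts, and the lower median, rest on the rule and on the single PBS array. Normexp (on median signals, offset 50) left 146 members, with 9 of 103 measured lower and a median treated minus PBS difference of -0.25. Of its members 120 were 16-fold higher in unlabelled ADSCs than in sham, and 8 were called lower by limma. Over all 21723 probes normexp called 86 lower and 17 higher, and the trended robust variance 28 lower and 9 higher, 6 of the lower ones being members. Quantile normalization gave 1 higher and 26 lower of 168 measured, and the deposited log2 values, which hold 132 members, a median of -0.49. A rule at 8-fold gave 738 members, and of 420 measured 4 were higher and 36 lower. At 32-fold there were 173, with 0 higher and 14 lower of 66 measured, and 167 above sham in unlabelled ADSCs. Chosen against sham, 3 of 198 measured were higher and 34 lower. Chosen from unlabelled ADSCs against sham, 2 of 192 were higher and 34 lower. Chosen against PBS, 13 of 144 were higher and 8 lower, with a median over all members of -0.022. Without the filter on dim probes 2 were higher and 57 lower, and over measured members alone the median was -0.52. With sham in place of PBS in the comparison, an alternative chosen after seeing the data, 2 were higher and 2 lower, with a median over all members of -0.083. Without 1 treated replicate there were 373 to 405 members, 0 of them higher. Of those measured, 30 of 170 were lower without treated 1 and 45 of 202 without treated 3. The median was -0.52 to -0.35, and 302 to 315 were above sham in unlabelled ADSCs. With 1 treated array limma has no residual degrees of freedom and was not run. The cause of these changes was not tested. The 10 members named as lowest stayed lower, and the 10 named as highest stayed higher, under each setting that gives them a value (6 and 7 of them in the deposited table), and 7 of the lowest stayed 2-fold lower under normexp. Dim probes bear only bounds. No paired analysis was possible because the groups compared share fewer than 2 replicate numbers.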
